A study of Rattus norvegicus with 6 samples.

Results

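The miR-200 family and miR-203a are short regulatory RNAs (miRNAs) that mark epithelial cells, and their levels were followed in small extracellular vesicles of rat plasma. The members were taken by name from the deposited count table: rno-miR-200a-3p, rno-miR-200a-5p, rno-miR-200b-3p, rno-miR-200b-5p, rno-miR-429, rno-miR-200c-3p, rno-miR-141-3p and rno-miR-203a-3p (the prefix for rat is left out from here on), which are 8 of the 764 mature miRNAs listed. All 8 passed the filter on low counts and were among the 362 miRNAs tested. Such vesicles are small particles, enclosed by a membrane, that cells shed into body fluids. Each preparation used 2 ml of plasma from male wild-type Sprague-Dawley rats, obtained at 6 to 8 weeks of age, and RNA of 18 to 30 nucleotides was sequenced. The 3 control libraries came from control rats, for which the labels give no vehicle injection. The 3 diabetic libraries came from rats 8 weeks into diabetes induced with streptozotocin at 65 mg/kg, given into the peritoneum, and counted as diabetic when their glucose after fasting exceeded 11.1 mmol/L. Streptozotocin destroys pancreatic beta cells, which make insulin, so that the animals model insulin deficiency, and other tissues that take up the toxin can be affected too. Nothing in the labels says whether a library came from 1 animal or from pooled plasma, so the spread between libraries may be in part technical.

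Members of the miR-200 family keep cells in an epithelial state by repressing Zeb1 and Zeb2, transcription factors that switch off E-cadherin. They are encoded in a pair of clusters, 1 with miR-200b, miR-200a and miR-429 and the other with miR-200c and miR-141. Their 3p strands are the guide strands in most tissues and fall into a pair of target groups by the seed, the bases that pair with messenger RNAs: miR-200b-3p, miR-200c-3p and miR-429 share a seed, and miR-200a-3p and miR-141-3p share another. In the mouse the family is also expressed in pancreatic islets, where it promotes beta cell death under stress. miR-203 is a miRNA of the skin and other layered epithelia, where in the mouse it represses the stem cell factor p63. Vesicles in plasma come from many tissues at once, so a lower level cannot be told apart between fewer vesicles of an epithelial source and less of the miRNA in each.

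The mature sequences are shown because the seed groups and the strands of the hairpins order the results. RefSeq (build GRCr8) held mature entries for 5 of the 8 members, each printed 5′ to 3′ with its seed, bases 2 to 8, in capitals. Entries for miR-200a-3p, miR-200b-3p and miR-429 were not matched.
miR-200c-3p: uAAUACUGccggguaaugaug
miR-141-3p: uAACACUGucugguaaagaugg
miR-200a-5p: cAUCUUACcggacagugcugg
miR-200b-5p: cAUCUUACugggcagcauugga
miR-203a-3p: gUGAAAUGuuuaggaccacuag

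Within the seeds, the guide strands of the miR-200c and miR-141 cluster differed by 1 substitution, U4C from miR-200c-3p to miR-141-3p, with positions counted from 1 at the 5′ end. Over their first 21 bases these strands were identical at 17. The passenger strands miR-200a-5p and miR-200b-5p shared the seed AUCUUAC and were identical at 16 of 21 bases, and miR-203a-3p had a seed of its own. In GRCr8 the hairpins of miR-429, miR-200a and miR-200b lie on the minus strand at chr5:171929682-171929766, chr5:171930717-171930805 and chr5:171931495-171931589, those of miR-141 and miR-200c on the minus strand at chr4:159209525-159209618 and chr4:159209965-159210033, and that of miR-203a on the plus strand at chr6:137020705-137020801. The counts were made by the submitters on rn6, and no coordinate entered the counting here. The RefSeq gene table places the first cluster within Ttll10 and the long non-coding LOC106182250, and the second between Phb2 and Ptpn6. On the opposite strand, miRNA genes overlap the hairpins of miR-200a (Mir3548), miR-200c (Mir3575) and miR-203a (Mir3545, also named Mir203b). miR-3548 and miR-3575 had a count of 0 in all 6 libraries, and whether the counting used strand is not given in the sources used here.

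The hairpin of miR-200b is shown because the ratio of its strands passed a test between the groups that was added after the data were seen. The pass was lost when some single libraries were left out. In the exact permutation test over the pairs of members the ratio did not pass (adjusted p = 0.267). Its 5p strand is in capitals.
Mir200b: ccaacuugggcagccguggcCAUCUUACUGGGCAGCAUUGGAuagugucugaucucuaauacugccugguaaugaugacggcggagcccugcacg

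Total miRNA counts ran from 6254077 to 8930730 per library, and counts of the members from 19 to 4514. Levels are given as normalized CPM, which are counts scaled to an equal library total after correction by the trimmed mean of M values (TMM), a scaling that assumes that most miRNAs do not differ. Where 3 values of a group are given, they stand in the order of replicates 1, 2 and 3. The libraries did not sort by group alone. The islet, pituitary and gut endocrine miRNA miR-375-3p, which belongs to the list of other epithelial miRNAs and is named here because of its values, held 897, 24778 and 40325 normalized CPM in the control and 882, 1558 and 21644 in the diabetic libraries. Control replicate 1 and diabetic replicates 1 and 2 were low, and the other 3 libraries high. In shares of counts, the erythrocyte markers miR-451, miR-486 and miR-144 together held 7.01% to 18.3% in control and 5.11% to 8.84% in diabetic libraries, the hepatocyte markers 3.15% to 21.0% and 5.78% to 8.59%, the leukocyte markers 0.253% to 0.594% and 0.740% to 0.951%, the platelet markers 0.445% to 0.534% and 0.977% to 1.48%, and the smooth muscle markers 1.55% to 2.13% and 3.79% to 6.90%. The last 3 did not overlap between the groups as shares of counts. After TMM scaling the leukocyte sum overlapped and the platelet and smooth muscle sums did not, while the erythrocyte sum, lower in diabetic libraries, did not. Single forms did not all follow these sums. Of the 5 erythrocyte forms 4 had a log2 fold change below 0, but miR-144-5p was higher in every diabetic library than in any control. Of the 4 smooth muscle forms 3 lay above 0, but miR-145-3p was lower in every diabetic library than in any control. The platelet markers were both strands of miR-126a, miR-223 and miR-199a. All 6 lay above 0, but groups were without overlap for 2 only, the strands of miR-126a, which is also an endothelial marker. Most of the platelet sum was miR-126a-3p, as with 4668 of 6658 normalized CPM in control replicate 1 and 9771 of 11663 in diabetic replicate 2. No library had 0 counts of miR-451-5p, miR-486, miR-126a-3p, miR-150-5p, miR-122-5p or miR-143-3p. The 6 pancreatic acinar forms together held 2.51, 3.60 and 3.92 normalized CPM in the control and 18.1, 49.4 and 6.58 in the diabetic libraries, without overlap. Only miR-217-5p of them was tested (log2 fold change 2.91, SE 0.68, adjusted p = 0.0647 by edgeR), with 15, 21 and 10 counts in the control libraries. The acinar miR-216b-5p had 0 counts in all 3 control libraries and 16, 65 and 8 in the diabetic ones.

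The family was a small component of the vesicle RNA. The 7 members of the miR-200 family together held 0.016%, 0.0521% and 0.0468% of the counts in the control libraries, and 0.0483%, 0.0644% and 0.0930% in the diabetic ones. The groups overlapped, since diabetic replicate 1 lay below control replicate 2, and control replicate 1 was the lowest library. With miR-203a-3p added, all 8 members held a mean of 0.0594% ± 0.0234 of the counts in control vesicles and 0.115% ± 0.0221 in diabetic ones (SD, n = 3 each), and the groups did not overlap. After TMM scaling the same sum was 0.0723% ± 0.0288 and 0.0950% ± 0.0234 and the groups overlapped. Sums over members are descriptions and were not tested. The TMM factors were 0.802, 0.978 and 0.702 in the control and 1.27, 1.27 and 1.12 in the diabetic libraries, and scaling by library size alone moved the median log2 fold change of all tested miRNAs from 0.02 to 0.61.

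The order of levels was miR-203a-3p, miR-200a-3p, miR-200b-3p, miR-200c-3p, miR-429, miR-200b-5p, miR-200a-5p and miR-141-3p. The 5 printed mature strands are 21 or 22 bases long. Ligation during library making is known to favour some sequences, and its part in the order was not tested. miR-203a-3p, the most abundant member, was rank 83 among the 764 listed miRNAs by mean normalized CPM, and miR-141-3p was rank 244. Within libraries, miR-200a-3p lay above miR-200b-3p in 6 of 6 libraries, miR-200c-3p above miR-429 in 6 of 6 and miR-429 above miR-200b-5p in 6 of 6. The other neighbours changed places in at least 1 library: miR-203a-3p lay above miR-200a-3p in 5 of 6, miR-200b-3p above miR-200c-3p in 5 of 6, miR-200b-5p above miR-200a-5p in 5 of 6 and miR-200a-5p above miR-141-3p in 4 of 6. For each of these 4 pairs the SD of the log2 ratio over libraries was larger than its mean. Their order thus varied between libraries, and their mean order was not tested.

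**Figure D1:**
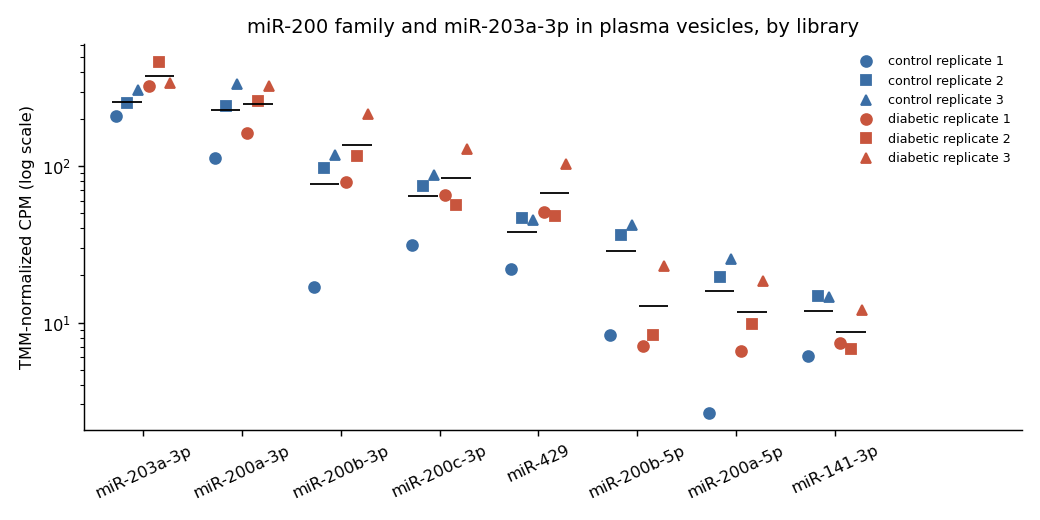
TMM-normalized CPM (log scale) of each member in each of the 6 libraries, with control in blue and diabetic in red, and a short line at each group mean. Control replicate 1 was the lowest library for 7 of the 8 members, and the diabetic libraries lay above all control libraries for miR-203a-3p and miR-429.

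Diabetic and control libraries were compared to ask which miRNAs of plasma vesicles change in diabetes of 8 weeks. None of the 8 members passed the quasi-likelihood test of edgeR after Benjamini-Hochberg adjustment over the 362 miRNAs (adjusted p 0.269 to 0.892), where 6 miRNAs, or 1.66%, passed. At an unadjusted p under 0.05 there were 0 members, against 82 miRNAs or 22.7% of all tested, and DESeq2 also called 0 members, against 11.6% of miRNAs. Of the members, 5 had a log2 fold change above 0 and 3 below, with a median of 0.25, beside 183 of 362 (50.6%) above 0 and a median of 0.02 for all tested miRNAs. In normalized CPM, groups without overlap were found for 2 of 8 members, both higher in diabetic libraries. Of all tested miRNAs 27.9% had groups without overlap in either direction, and 13.3% did so with diabetic libraries higher. As shares of counts, groups were without overlap for 3 of 8 members and for 131 of the 362 miRNAs in either direction. In the authors' deposited table the false discovery rate of the 8 members ran from 0.0740 for miR-429 to 1. It was under 0.05 for 0 of the 8 members and for 63 of the 764 miRNAs. The deposited log2 fold changes of the members were near those with library size only, not those with TMM. For miR-429 the deposited value was 1.35, beside 1.35 with library size only and 0.83 with TMM.

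Among guide strands with the seed of miR-200c-3p, miR-429 held 21.9, 46.4 and 45.1 normalized CPM in the control and 50.7, 48.0 and 103 in the diabetic libraries. Every diabetic library was above every control library, by a small margin for diabetic replicate 2. The log2 fold change was 0.83 (SE 0.45, adjusted p = 0.269 by edgeR), and 0.40 without diabetic replicate 3.

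miR-200b-3p, the guide strand at the head of the same cluster, held 16.9, 97.1 and 118 normalized CPM in the control and 78.9, 116 and 215 in the diabetic libraries. Control replicate 1 was far below all other libraries and diabetic replicate 3 far above, and the remaining 4 overlapped. As shares of counts, every diabetic library was above every control library. Its log2 fold change of 0.83 (SE 0.63, adjusted p = 0.442 by edgeR) was 0.33 without control replicate 1 and 0.36 without diabetic replicate 3.

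miR-200c-3p, from the other cluster, was at 31.5, 75.1 and 87.6 normalized CPM in the control and 65.9, 56.4 and 129 in the diabetic libraries. The lowest library was again control replicate 1 and the highest diabetic replicate 3. The log2 fold change was 0.38 (SE 0.48, adjusted p = 0.681 by edgeR), or -0.06 without diabetic replicate 3 and 0.02 with control replicate 1 left out.

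Among guide strands with the seed of miR-141-3p, miR-200a-3p was at 112, 244 and 334 normalized CPM in the control and 162, 261 and 328 in the diabetic libraries. The groups covered nearly the same range. The log2 fold change was 0.12 (SE 0.45, adjusted p = 0.892 by edgeR), and its sign turned with upper quartile scaling, to -0.14.

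miR-141-3p, the least abundant member, was read 44, 91 and 67 times in the control and 71, 65 and 114 times in the diabetic libraries, or 6.14, 14.9 and 14.6 against 7.44, 6.73 and 12.1 normalized CPM. The groups overlapped. The log2 fold change was -0.43 (SE 0.46, adjusted p = 0.608 by edgeR), or 0.09 with library size only.

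The 2 passenger strands come from the hairpins of miR-200a and miR-200b. miR-200b-5p was at 8.37, 36.1 and 42.0 normalized CPM in the control and 7.13, 8.29 and 23.0 in the diabetic libraries, a log2 fold change of -1.17 (SE 0.63, adjusted p = 0.271 by edgeR) that ran from -1.88 without diabetic replicate 3 to -0.82 without control replicate 3. Its 3 high libraries, control replicates 2 and 3 and diabetic replicate 3, were the 3 with high miR-375-3p. miR-200a-5p was read 19, 119 and 117 times in the control and 63, 94 and 175 times in the diabetic libraries, or 2.65, 19.5 and 25.5 against 6.60, 9.74 and 18.6 normalized CPM. Its log2 fold change was -0.44 (SE 0.69, adjusted p = 0.740 by edgeR), or 0.10 with library size only. The same 3 libraries were the highest for miR-200a-5p and for the guide strands miR-141-3p and miR-200c-3p, and the part of the split by miR-375-3p in these values was not tested.

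miR-203a-3p, the member outside the family, was at 209, 253 and 309 normalized CPM in the control and 326, 468 and 342 in the diabetic libraries. The groups did not overlap, and the spread within each was the smallest of the members on a log scale. The log2 fold change was 0.56 (SE 0.34, adjusted p = 0.311 by edgeR), with a range of 0.37 to 0.69 when each library was left out in turn. With library size only it was 1.14 (adjusted p = 0.0568), against a median of 0.61 for all miRNAs under that scaling, where 13.5% of miRNAs were called.

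**Figure D2:**
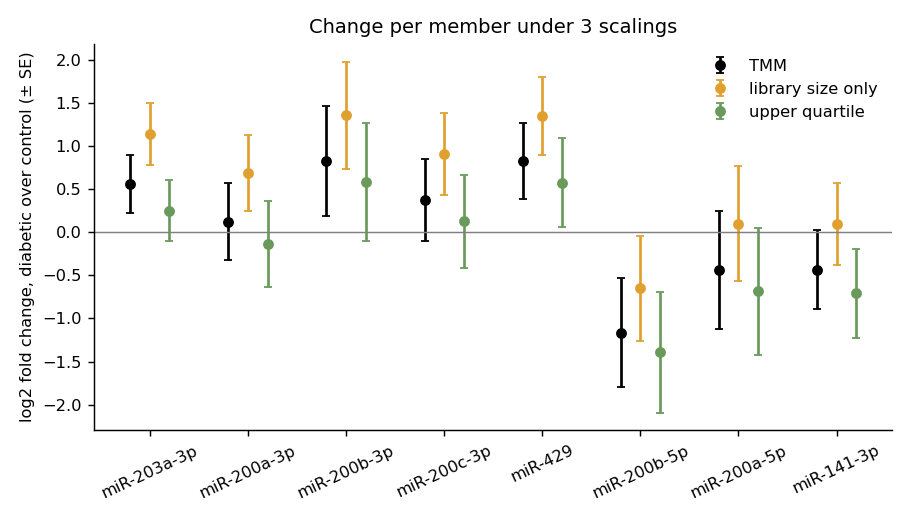
Log2 fold change, diabetic over control, with its SE for each member from edgeR's quasi-likelihood fit under TMM, library size only and upper quartile scaling. All 8 values moved up or down together between scalings, since a scaling factor applies to every miRNA of a library. For the same reason miR-200b-5p stayed the lowest of the 8 under each of the 3 scalings.

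Ratios between members of the same library do not depend on the scaling, and those between the strands of miR-200b were far apart in the groups. On the miR-200b hairpin, the 5p strand made up 33.1%, 27.1% and 26.3% of the reads of both strands in the control libraries and 8.28%, 6.66% and 9.65% in the diabetic ones. All control libraries were above all diabetic libraries, and none of their 95% exact (Clopper-Pearson) intervals met, with a lowest control bound of 23.2% and a highest diabetic bound of 10.9%, for counting error only. The group means were 28.9% ± 3.73 and 8.20% ± 1.50 (SD, n = 3 each).

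The ratio of miR-200b-5p to miR-200b-3p was thus 4.57-fold lower in diabetic libraries, a difference of -2.19 in log2 ratio. The p of a two-sided exact permutation test was 0.1, the smallest that 3 libraries against 3 allow, and 0.267 after adjustment over the 8 pairs of members compared. To set the ratio beside other miRNAs, the 5p to 3p ratio was then fitted with limma for all 95 hairpins with both strands tested, an analysis added after the data were seen. The miR-200b ratio fell by 2.19 on the log2 scale (SE 0.35) with an adjusted p of 0.0228, and it had the smallest p of the 95. In that fit 11 hairpins, or 11.6%, passed the threshold, 5 with a lower (5.26%) and 6 with a higher share of 5p, and 36 (37.9%) had groups without overlap, 18 of them lower (18.9%). The absolute difference was larger in 9 other hairpins.

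The size of the miR-200b difference moved little when libraries were left out, between -2.33 and -2.04. Its adjusted p in limma lay above 0.05 without control replicate 2 (0.0901), diabetic replicate 1 (0.0725), diabetic replicate 2 (0.0557) or diabetic replicate 3 (0.0589), fits in which 0 hairpins passed, and below it without control replicate 1 (0.0106), where 25 hairpins passed and miR-200b was 7th by p, or without control replicate 3 (0.0440), where 4 passed. Among the libraries high in miR-375-3p, the 5p share was 27.1% and 26.3% in control replicates 2 and 3 and 9.65% in diabetic replicate 3. Among those low in it, the share was 33.1% in control replicate 1 and 8.28% and 6.66% in diabetic replicates 1 and 2. The part of the split by miR-375-3p in these shares was not tested. How reads that match several members of the family were counted is not given in the sources used here, and a shift of reads between miR-200b-3p and its near relatives was not tested.

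**Figure D3:**
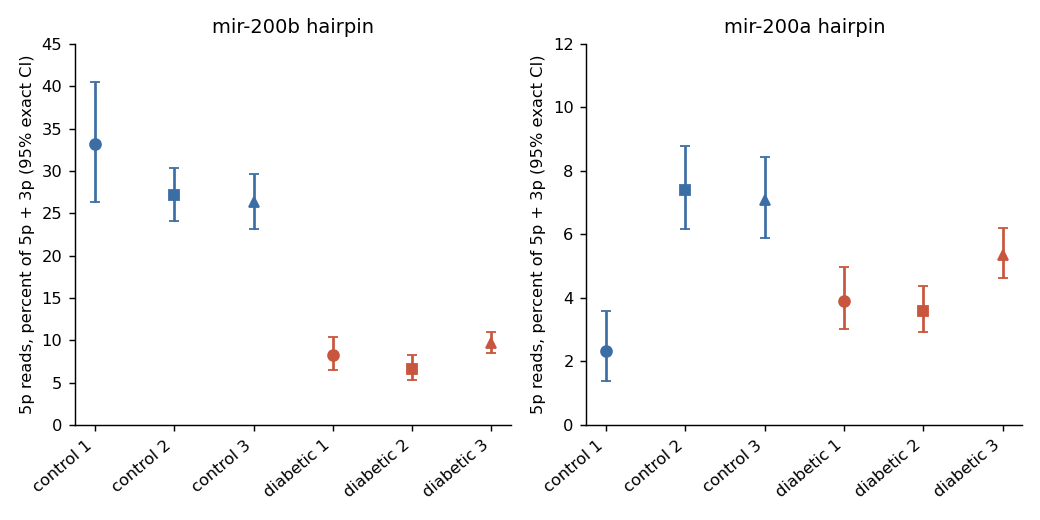
Share of 5p reads among 5p and 3p reads of the miR-200b hairpin (left) and the miR-200a hairpin (right) in each library, with 95% exact binomial intervals. The miR-200b share was 26.3% to 33.1% in control and 6.66% to 9.65% in diabetic libraries, while the miR-200a shares of the groups overlapped.

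On the neighbouring miR-200a hairpin the groups overlapped. The 5p strand made up 2.31%, 7.40% and 7.09% of the reads in control and 3.91%, 3.59% and 5.36% in diabetic libraries. Control replicate 1 was below every diabetic library and the other controls above. The log2 ratio differed by -0.26 (SE 0.53, adjusted p = 0.761 in limma), or by -0.82 without control replicate 1 (adjusted p = 0.116). The difference between the changes on both hairpins was not tested.

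**Figure D4:**
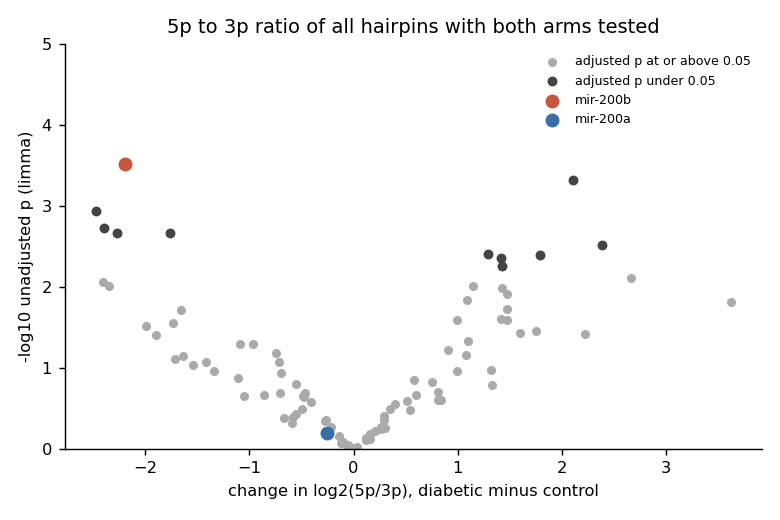
Change in log2(5p/3p) from control to diabetic libraries (horizontal) against the unadjusted p of limma on a -log10 scale (vertical) for each of the 95 hairpins with both strands tested. The miR-200b hairpin, at -2.19, had the smallest p, and the miR-200a hairpin, at -0.26, lay near the centre.

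Members with the seed of miR-141-3p were set against members with the seed of miR-200c-3p. The summed counts of miR-200a-3p and miR-141-3p were 168%, 118% and 139% of those of miR-200b-3p, miR-200c-3p and miR-429 in the control and 86.8%, 122% and 76.0% in the diabetic libraries, and the groups overlapped. The log2 ratio of miR-141-3p to miR-200c-3p was -2.35, -2.33 and -2.58 in the control and -3.14, -3.06 and -3.41 in the diabetic libraries. The groups did not overlap and differed by -0.79 (SE 0.13, two-sided exact permutation p = 0.1, 0.267 after adjustment over the 8 pairs). Left out in turn, no library moved this difference outside -0.87 to -0.68.

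The log2 ratio of miR-200a-3p to miR-200b-3p was 2.73, 1.33 and 1.50 in control and 1.04, 1.17 and 0.60 in diabetic libraries, again without overlap. The difference of -0.91 (SE 0.47, two-sided exact permutation p = 0.1, 0.267 adjusted) was -0.48 without control replicate 1. Groups were without overlap for 3 of the 8 pairs, where 27.0% of the ratios of any 2 tested miRNAs had groups without overlap.

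For the other 5 pairs the groups overlapped. The log2 ratio differed by -0.71 (SE 0.49) for miR-200c-3p to miR-200b-3p and by -0.58 (SE 0.28) for miR-141-3p to miR-200a-3p, members that share a seed across the clusters. It differed by -0.30 (SE 0.57) for miR-429 to miR-200b-3p and by -0.56 (SE 0.87) for miR-203a-3p to miR-200b-3p, and both turned positive, to 0.23 and 0.19, without control replicate 1. Two-sided exact permutation p-values of these 5 pairs, which include the strands of miR-200a, were 0.2 to 0.8, or 0.4 to 0.8 after adjustment. Relative to the whole cluster of miR-200b, miR-200a and miR-429, the counts of the miR-200c and miR-141 cluster were 20.6% ± 2.59 in control and 19.6% ± 4.95 in diabetic libraries (SD, n = 3 each), a difference smaller than the spread within either group.

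**Figure D5:**
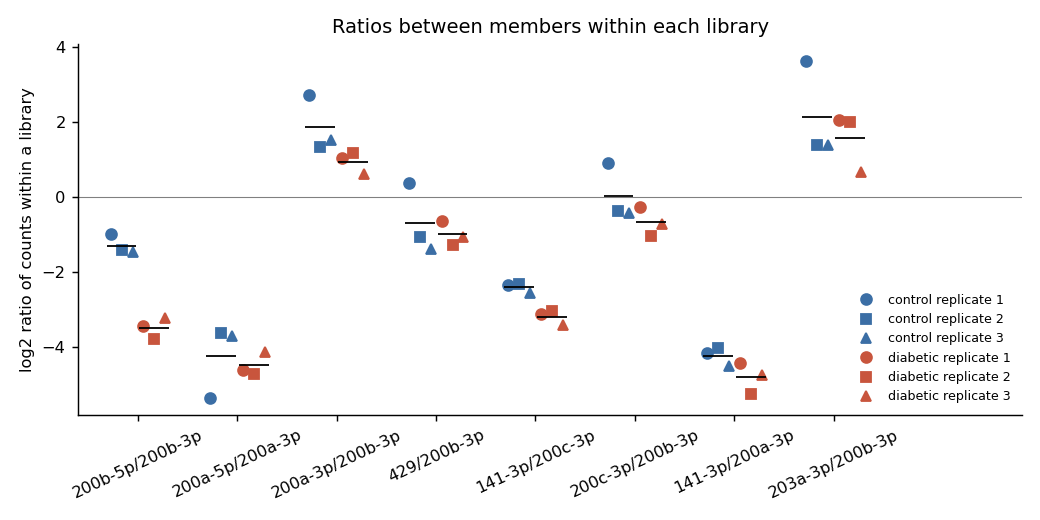
Log2 ratio of the counts of 2 members within each library for the 8 pairs compared, with control in blue and diabetic in red and a short line at each group mean. The groups are apart for miR-200b-5p to miR-200b-3p, miR-200a-3p to miR-200b-3p and miR-141-3p to miR-200c-3p, and control replicate 1 stands apart from the other control libraries in several of the ratios to miR-200b-3p.

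The same counts can be given as shares of the 7 family members, which is a description and not a further test. miR-200b-3p took 8.46%, 18.2% and 17.7% of the family's counts in control and 20.8%, 22.9% and 26.0% in diabetic libraries. miR-200b-5p took 4.20%, 6.78% and 6.31% against 1.88%, 1.64% and 2.78%, and miR-141-3p 3.08%, 2.79% and 2.19% against 1.96%, 1.33% and 1.46%. miR-200a-3p was the largest part, at 50.7% ± 5.23 in control and 44.6% ± 6.23 in diabetic libraries (SD, n = 3 each). The groups overlapped for miR-200a-3p, miR-200a-5p, miR-429 and miR-200c-3p, and did not for the members given by library.

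Other epithelial miRNAs were read from a list of 23 mature forms, of which 9 were tested, 5 had no count in any library and 0 passed the test over all miRNAs. Of the 9 tested, 2 lay above a log2 fold change of 0 and 7 below, with a median of -0.42, beside 0.02 for all tested miRNAs. miR-182, a miRNA of sensory epithelia, was at 152, 475 and 532 normalized CPM in the control and 137, 166 and 132 in the diabetic libraries (log2 fold change -1.41, SE 0.46, adjusted p = 0.114 by edgeR), where control replicate 1 lay among the diabetic libraries. miR-183-5p, from the same cluster, stood at 67.6, 249 and 428 against 52.3, 96.6 and 134 normalized CPM (log2 fold change -1.40, SE 0.61, adjusted p = 0.203). miR-34c-5p, of ciliated epithelium, stood at 4.75, 1.64 and 5.01 against 6.60, 7.77 and 9.44 normalized CPM (log2 fold change 1.07, SE 0.49, adjusted p = 0.210). miR-203b-3p, whose hairpin lies opposite that of miR-203a, was at 8.10, 12.3 and 20.5 against 13.9, 13.3 and 13.2 normalized CPM (log2 fold change -0.01, SE 0.42), and it is named for its position. The passenger strands miR-200c-5p and miR-203a-5p had 0 counts in every library, and miR-141-5p at most 23.

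The miRNAs most like the summed family over the 6 libraries were sought by the root mean square difference of centred log2 normalized CPM among 354 other tested miRNAs. They were miR-129-5p and miR-672-5p, at 0.30 each, and miR-582-3p, at 0.37, where the median miRNA was at 0.89. Like the family, all 3 were lowest in control replicate 1, at 24.0, 5.02 and 4.89 normalized CPM. The nearest to miR-203a-3p were miR-134-5p at 0.19, miR-151-5p at 0.20 and miR-126a-3p at 0.21, with a median of 0.67, and miR-126a-3p is one of the platelet and endothelial markers. It was at 4668, 4089 and 5111 normalized CPM in the control and 7756, 9771 and 6324 in diabetic libraries, and its part in the values of miR-203a-3p was not tested.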

How the data were processed

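Small RNA from plasma vesicles was sequenced on an Illumina HiSeq, per the labels' protocols. The submitters' processing notes name rn6 as genome build. The aligner, counter, miRNA release and read filters are not given in the sources used here. The authors deposited whole-number counts per mature miRNA in 2 tables, identical in all 4584 cells. They also deposited CPM values (all cells recomputed from the counts within 0.006), log2 fold changes, and p-values with false discovery rates, of a comparison named edgeR in the table's name and DEGseq in the series text.

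The counts were tested with edgeR 4.0.16 (R 4.3.3): filterByExpr defaults (minimum count 10, minimum total 15), TMM, a quasi-likelihood test without a block, Benjamini-Hochberg adjustment over 362 miRNAs and a threshold of 0.05. For edgeR, SE is the size of the log2 fold change over the square root of F. For the pairs of members it was computed from the SDs of both groups, and for strand ratios fitted with limma it is limma's own. DESeq2 1.42.0 and limma 3.58.1 were alternatives, and limma fitted the strand ratios. Ratios used a pseudocount of 0.5 counts and exact permutation tests (scipy 1.17.1). Hairpins numbered on 1 strand only were not paired. Scripts were tested on simulated data. The members, pairs and lists were chosen with earlier results of these data known. All members were named, of the list of other epithelial miRNAs the 3 with the smallest p, and the 3 nearest miRNAs by likeness. Further forms named from the lists were picked for their values, their position or their role as markers, not by p. Groups and replicate numbers came from sample titles. The main fits did not pair libraries by these numbers, and whether the numbers pair them was not tested. Same-numbered deviations from the group means correlated at 0.281, 0.001 and 0.246, and differently numbered ones at -0.416 to 0.077. No library was a copy of another (chi-square per degree of freedom at least 618.1).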

Additional observations from a re-analysis of the deposited data

How the results depend on the processing

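No member passed the threshold in any of the 16 other fits (scalings, filters, tests, the replicate block and 6 fits without a library). The log2 fold change of miR-200a-3p turned to -0.14 under upper quartile scaling, and it ran from -0.23 (without control replicate 1) to 0.47 without a library, with -0.081 when diabetic replicate 3 was left out. With library size only, miR-200a-5p turned to 0.0996 and miR-141-3p to 0.0947. Without a library, miR-200a-5p ran from -0.97 to 0.047 (without control replicate 3) and miR-200c-3p from -0.055 (without diabetic replicate 3) to 0.63. The cause was not tested.

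Over all miRNAs the count of calls was 6, against 2 under upper quartile scaling, 49 with library size only, 42 with DESeq2, 30 with edgeR's exact test and 57 with the replicate block, and 0 to 49 when 1 library was left out.

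The sum of all members differed by 0.0556 percentage points as a share of counts and by 0.0226 after TMM scaling, and that of miR-200a-3p with miR-141-3p by 0.0115 and 0.00174.

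With the replicate block, limma (adjusted over 95 hairpins) gave the miR-200b strand ratio an adjusted p of 0.00458, with 30 hairpins called against 11 and miR-200b at rank 7 by p, and an exact sign-flip permutation of same-numbered libraries gave 0.25, its smallest value. The block called 0 members. Without a library the log2 ratio of miR-200a-5p to miR-200a-3p ran from -0.82 to 0.0403, that of miR-429 to miR-200b-3p from -0.65 to 0.23, that of miR-203a-3p to miR-200b-3p from -0.94 to 0.19 and the strand ratio of miR-200b from -2.33 to -2.04. Low counts limit miR-141-3p and the passenger strands, the smallest being 19.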
